A study of Mus musculus with 8 samples.

Results

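The genes described here encode the subunits of mitochondrial oxidative phosphorylation, taken as every gene name on the array that begins as Nduf (with a, b, c, s or v and a number), Sdh (a to d), Uqcr, Cox4 to Cox8 or Atp5. The rule found 85 of the array's 35513 gene names, read by 117 probes: 37 of complex I, 4 of complex II, 8 of complex III, 19 of complex IV and 17 of complex V. Complexes were assigned by gene name, so complex I here holds Ndufa4, now counted as a complex IV subunit, and its relative Ndufa4l2. Each gene was read from its probe of highest mean signal. A gene was tested where its probe was well above background on 2 or more of the 8 arrays, which held for 84 of the 85, among 27120 genes tested. Cox8c was left out, being well above background on 0 arrays. The rule also takes in a few genes that are not subunits: Cox4nb, Atp5s and Atp5sl, whose probes match transcripts now named Emc8, Dmac2l and Dmac2 in RefSeq, and Cox7a2l, which encodes a factor that joins complexes III and IV.

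The 5 complexes sit in the inner mitochondrial membrane. Complex I (NADH dehydrogenase) and complex II (succinate dehydrogenase) pass electrons to ubiquinone, complex III passes them to cytochrome c, and complex IV (cytochrome c oxidase) passes them to oxygen. Complexes I, III and IV pump protons, and complex V (ATP synthase) uses the gradient to make ATP. Some complex IV subunits have alternative isoforms that are known from heart, muscle, brown fat, testis or lung. In the developing brain, neural stem cells are known to rely on glycolysis more than their neuronal progeny do.

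RNA of mouse neurospheres, in which neural progenitors grow as free-floating balls, was read on 8 single-colour arrays. The cells came from EB3, a mouse embryonic stem cell line, through embryoid bodies made in the presence of Noggin (which blocks BMP). All 8 cultures carried a lentivirus and were kept for 6 days in FGF2 at 20 ng/ml. The lentivirus gave 1 of 4 conditions: control shRNA (its target is firefly luciferase), Nr2f1/2 shRNA (directed at a pair of orphan nuclear receptors), control miRNA, or miR-17. Each condition was read once as primary (P0) and once as tertiary (P2) neurospheres, so each of the 8 groups was 1 array. Nothing in the labels tells if cultures were separate, so p-values measure only the spread between these arrays.

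Between 57.9% and 67.9% of spots on an array were well above background, and 0 non-control spots were saturated. All shRNA arrays were in column 1 of the slide and all miRNA arrays in column 2, so vector system and column cannot be told apart. The treated array of each pair also lay in another slide row than its control, as did the P2 arrays and the P0 arrays. All 12 neural stem and progenitor markers were well above background on every array. Against the control shRNA, the knockdown array differed by -0.79 log2 units at P0 and -1.17 at P2 for Nr2f1, and by -0.51 and -0.90 for Nr2f2. In the fit over all arrays neither was called (limma, adjusted p = 0.999). The array reads RNA of whole cultures, in which a change in the number of cells of a type and a change in RNA per cell cannot be told apart. Values are log2 intensities minus each array's 75th percentile.

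Oxidative phosphorylation genes were higher in tertiary than in primary neurospheres in the miRNA-vector cultures, across all 5 complexes, and not in the shRNA-vector cultures. The median difference over the 84 genes, P2 minus P0, was 0.75 log2 units with the control miRNA and 0.83 with miR-17. It was -0.15 with the control shRNA and -0.03 with the Nr2f1/2 shRNA. Over all genes tested the medians were -0.24, -0.22, -0.19 and -0.11 in the same order. The direction in the miRNA cultures was the same under each scaling tried, while quantile normalization turned the shRNA medians to 0.21 and 0.14, so no direction is given for them.

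**Figure D1:**
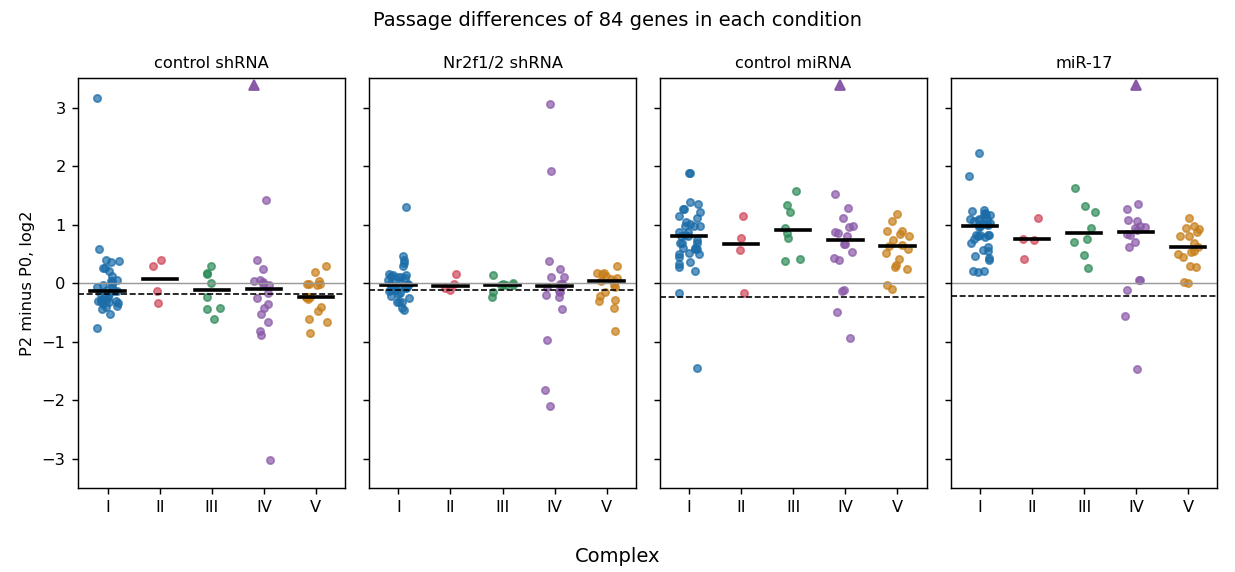
Difference between the P2 and P0 array of each condition (log2, vertical axis) for the 84 genes tested, by complex; each point is a gene, thick bars are complex medians, the dashed line is the median of all genes tested, and triangles are genes beyond the axis (Cox8b). Complex medians lay between 0.61 and 0.97 in the miRNA panels and between -0.24 and 0.07 in the shRNA panels.

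By count, 75 of 84 genes were higher at P2 with the control miRNA and 81 of 84 with miR-17, against 41.7% and 42.4% of all genes. Past 1.5-fold higher were 55 and 60 of 84, against 24.3% of all genes in each pair. With the control shRNA 3 of 84 were past 1.5-fold higher and 9 past 1.5-fold lower, against 19.7% and 29.1% of all genes. With the Nr2f1/2 shRNA 3 were higher and 4 lower, against 11.8% and 18.8%. After quantile normalization the control shRNA pair turned to 12 higher and 4 lower. In the miRNA pairs 2 and 1 genes were past 1.5-fold lower, against 39.2% and 37.9%. Of any size, 29 and 33 of 84 were higher in the shRNA pairs, against 39.8% and 40.6% of all genes, and after quantile normalization 57 and 56.

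In a limma fit to the 4 miRNA arrays alone, 51 of 84 genes rose with passage and 1 fell, at an adjusted p under 0.05. Of all genes 19.3% rose and 31.3% fell in that fit, which has 1 residual degree of freedom. Its spread comes from the control miRNA and miR-17 pairs, taken as replicates of passage. The test of passage that the design set out was the fit over all 4 conditions, given below. The 51 include Cox8b, which passed the filter only through tertiary arrays. By complex, 24 of 37 genes of complex I rose, 2 of 4 of complex II, 6 of 8 of complex III, 11 of 18 of complex IV and 8 of 17 of complex V. In the 4 shRNA arrays alone 0 of 84 were called, as were 0% of all genes in either direction (limma), and 5 of 84 had an unadjusted p under 0.05, against 18.5% of all genes. A fit to all 8 arrays with a term for vector system by passage, chosen after the pairs were seen, gave 50 risen and 1 fallen in the miRNA arrays, against 17.8% and 28.1% of all genes. Those calls need all 4 miRNA arrays. Without the control miRNA array of either passage 1 gene was called in that fit, and without the miR-17 array of either passage 0 genes.

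Averaged over all 4 conditions, as the design sets out, 0 of 84 genes were called with passage, against 2.61% of all genes higher and 2.36% lower (limma with condition as a block). The median was 0.38, against -0.21 over all genes. The split of all called genes depends on the processing: 52.6% of 1348 were higher, against 30.7% of 7013 with normexp background correction and 65.0% of 1421 after quantile normalization. Unadjusted p was under 0.05 for 9 of the genes, 8 higher and 1 lower (against 40.1% of all genes). Nearest to the threshold was Cox6b2, at -1.88 log2 units (SE 0.38, adjusted p = 0.0545), followed by Cox8b (adjusted p = 0.0581), for which only a bound can be given. Cox8b was well above background on the 4 tertiary arrays alone, where it was at least 118-fold higher. Without either Nr2f1/2 shRNA array it was called (adjusted p = 0.0258). It passed the filter on dim probes only through the tertiary arrays, so its p-values rest on primary values at background.

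The difference between the vector systems was tested with the vector by passage term. Of the 84 genes, 57 had an unadjusted p under 0.05, against 32.5% of all genes, and 5 passed the adjusted threshold. Those on the higher side were Cox8b, Ndufc2, Cox7a1 and Uqcr11, against 1.78% of all genes, and on the lower side Cox7b2, against 6.78%. The calls of Cox8b and Cox7b2 are not read further, since both genes were not well above background on 4 or more arrays and passed the filter only through the arrays where they were high. Ndufc2, an accessory subunit of complex I, differed between the systems by 2.09 log2 units (SE 0.30, adjusted p = 0.0368), Cox7a1 by 2.07 (SE 0.35, adjusted p = 0.0439) and Uqcr11 by 1.51 (SE 0.27, adjusted p = 0.0471). This count rests on few arrays: it was 0 without any 1 of the miRNA arrays, 1 without either Nr2f1/2 shRNA array, 0 with no filter on dim probes, 3 after quantile normalization and 14 with normexp background correction. With the trended robust prior it was 25. Of all 2321 genes called 20.8% were higher, against 47.4% of 2426 with normexp and 35.9% of 2505 with median centring.

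**Figure D2:**
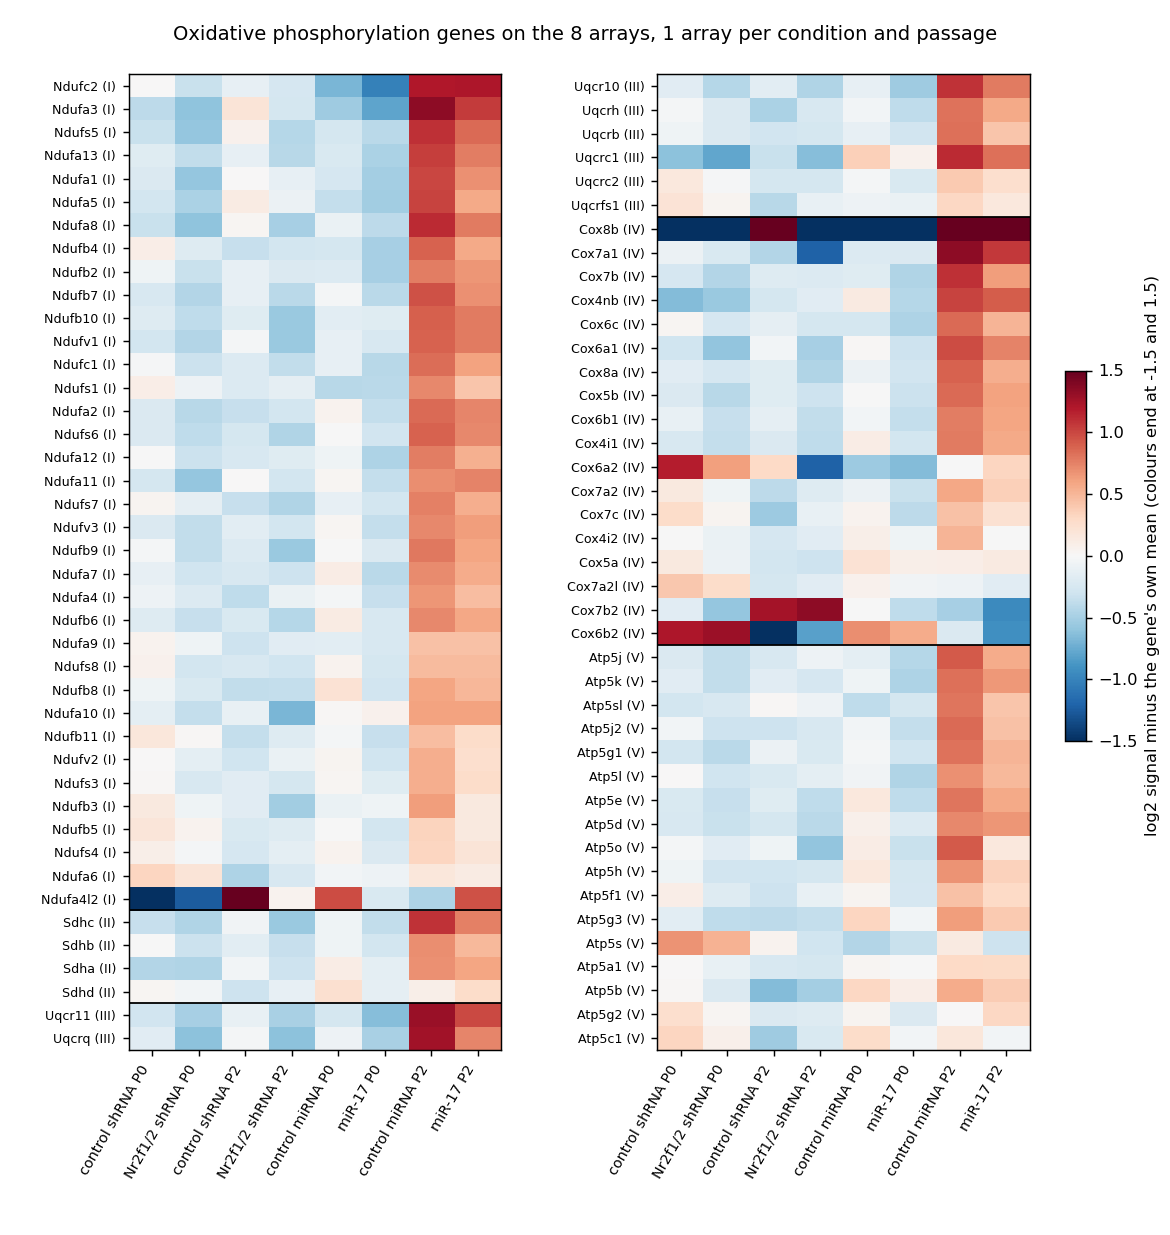
Log2 signal on each array of all but 1 of the 84 genes tested, shown as the difference from the gene's own mean over the 8 arrays (colour), with genes in rows ordered by complex and passage difference in the miRNA arrays. The 2 columns of the tertiary miRNA-vector cultures are red in most rows; over all 84 genes both stood above all 6 other arrays for 67.

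Across the 8 arrays the tertiary control miRNA array was the highest of all for 69 of 84 genes and the tertiary miR-17 array for 6. Both lay above all 6 other arrays for 67 genes (32 of 37, 3 of 4, 7 of 8, 11 of 18 and 14 of 17 in complexes I to V), against 21.3% of all genes. Both lay below all others for 0 genes, against 19.3%. Between the 2 control vectors the genes differed little at P0, with a median of 0.03 for control miRNA minus control shRNA and 47 of 84 higher (against 55.5% of all genes) and 3 genes past 1.5-fold in each direction, against 25.9% and 13.4%. At P2 the median was 0.98, against 0.17 over all genes, 81 of 84 were higher (against 58.2%) and 72 were past 1.5-fold higher, against 25.9%, and 2 past 1.5-fold lower, against 21.5%. Quantile normalization brought this median to 0.55 and the count past 1.5-fold higher to 36. Averaged over both passages, 0 of 84 and 0% of all genes were called between the control vectors (limma), with 3 of 84 at an unadjusted p under 0.05, against 9.58% of all genes.

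In complex I the nuclear genes of the catalytic core, whose products carry the flavin and the iron-sulfur clusters, had a lower median than the other Nduf genes. The latter are accessory ones, with Ndufa4 and Ndufa4l2 placed among them by name. Core subunits encoded in the mitochondrial genome, such as ND5, lie outside the rule and are read further below. The median miRNA passage difference was 0.59 over the 7 core genes, of which 3 rose, and 0.90 over the other 30, of which 21 rose. The difference between these subsets was not tested. Ndufc2 read 5.64, 5.31, 5.51 and 5.39 on the shRNA arrays (control P0, knockdown P0, control P2, knockdown P2), and 4.95, 4.62, 6.84 and 6.85 on the miRNA arrays (control P0, miR-17 P0, control P2, miR-17 P2). Its 2 tertiary miRNA arrays were the highest and its 2 primary miRNA arrays the lowest of the 8. It rose 4.17-fold in the miRNA arrays (log2 2.06, SE 0.21, adjusted p = 0.00472 in limma).

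Ndufa3, an accessory subunit of the membrane arm, rose 3.64-fold in the miRNA arrays (log2 1.86, SE 0.19, adjusted p = 0.00482 in limma). Its other probe gave -0.65 there, so the value depends on the probe. Ndufs5, Ndufa13 and Ndufa1, all accessory subunits, rose by 1.30, 1.25 and 1.23 log2 units. Among core genes Ndufv1, which binds NADH and the flavin, rose by 1.01 (SE 0.19, adjusted p = 0.0188 in limma), and Ndufs1, the largest subunit, by 0.98 (SE 0.21, adjusted p = 0.0245). Ndufs7, which carries the last cluster before ubiquinone, rose by 0.85.

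All 4 genes of complex II are encoded in the nucleus. Sdhc, a membrane anchor, read 3.66, 3.56, 3.95 and 3.45 on the shRNA arrays and 3.94, 3.64, 5.09 and 4.76 on the miRNA arrays, in the order given above. The tertiary miRNA arrays were again the highest 2, and Sdhc rose 2.20-fold there (log2 1.13, SE 0.19, adjusted p = 0.0145 in limma). Sdhb, the iron-sulfur subunit, rose by 0.76 (adjusted p = 0.0373). Sdha, the flavin subunit, gave 0.65 (adjusted p = 0.0571) and Sdhd, the other anchor, 0.13 (adjusted p = 0.677), and neither passed. In the shRNA arrays the 4 differences lay between -0.21 and 0.27.

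In complex III all 5 genes outside the core rose in the miRNA arrays, by 0.83 to 1.60 log2 units, and 1 of 3 core genes did. Uqcr11, the smallest subunit, read 5.27, 5.06, 5.44 and 5.07 on the shRNA arrays and 5.29, 4.91, 6.85 and 6.54 on the miRNA arrays. Its 6 other values spanned little beside the gap to the tertiary miRNA arrays, and it rose 3.03-fold there (log2 1.60, SE 0.19, adjusted p = 0.00666 in limma). Uqcrq rose by 1.27 and Uqcr10 by 1.26. Of the core, Uqcrc1 rose by 0.77 (adjusted p = 0.0365), while Uqcrc2 at 0.45 (adjusted p = 0.125) and the Rieske protein gene Uqcrfs1 at 0.32 (adjusted p = 0.237) did not pass.

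Complex V had a median of 0.65 in the miRNA arrays, against 0.80 over the whole set. In the F1 head, where ATP is made, the genes of the alpha, beta and gamma subunits did not pass: Atp5a1 gave 0.28, Atp5b 0.26 and Atp5c1 -0.05 log2 units (adjusted p = 0.284, 0.307 and 0.851 in limma). The delta and epsilon genes Atp5d and Atp5e rose, by 0.76 and 0.80 (adjusted p = 0.0421 and 0.0395). Atp5j (coupling factor 6) rose by 1.02 and Atp5k (subunit e) by 1.01. The c-ring, through which protons pass, is made from 3 genes of the same mature protein. Of these Atp5g1 rose by 0.83 (adjusted p = 0.0307), and Atp5g3 at 0.38 (adjusted p = 0.177) and Atp5g2 at 0.25 (adjusted p = 0.419) did not pass.

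The common isoforms of complex IV followed the other complexes. Cox8a, the subunit 8 isoform of most tissues, read 6.60, 6.52, 6.59 and 6.32 on the shRNA arrays and 6.69, 6.49, 7.66 and 7.32 on the miRNA arrays. It rose 1.87-fold in the latter (log2 0.90, SE 0.19, adjusted p = 0.0262 in limma). Of the 7 genes listed as common isoforms in this complex 6 rose, with a median of 0.88, and Cox7b, at 1.18, was the highest. Cox6a1 rose by 1.01 (adjusted p = 0.0195) and Cox7a2 by 0.69 (adjusted p = 0.0480). The other was Cox7a2l, at -0.13 (adjusted p = 0.609), which as said above is not a subunit but is on that list. Cox5a, a subunit with no isoform, gave -0.04 (adjusted p = 0.882), and its partner Cox5b rose by 0.88 (adjusted p = 0.0264). Cox6c, another subunit with no isoform, rose by 1.04 (adjusted p = 0.0183).

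Of the 6 alternative isoforms of complex IV tested, 2 were called higher and 1 lower in the miRNA arrays. The 2 are Cox7a1 and Cox8b, and the call of Cox8b is not read, since it passed the filter only through the tertiary arrays. Cox8b had the widest range of the set. Cox8b, the heart, muscle and brown fat isoform of subunit 8, is read by a probe on chromosome 7 at 148084852 to 148084911 of mm9. Its values were -6.92, -7.29, -0.87 and -4.22 on the shRNA arrays and -7.03, -6.05, 6.33 and 6.45 on the miRNA arrays. It was well above background on the 4 tertiary arrays and on 0 of 4 primary arrays, so folds are bounds against the lowest signal well above background. In tertiary neurospheres it was at least 2340-fold higher with the control miRNA, at least 2610-fold with miR-17, at least 17.1-fold with the control shRNA and at least 1.87-fold with the Nr2f1/2 shRNA. Over the 2 miRNA pairs the bound was 2470-fold. The bound was not tested, since any p-value of Cox8b rests on primary values at background. The Nr2f1/2 shRNA array was -3.35 log2 units from its control at P2, with no replicate check.

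**Figure D3:**
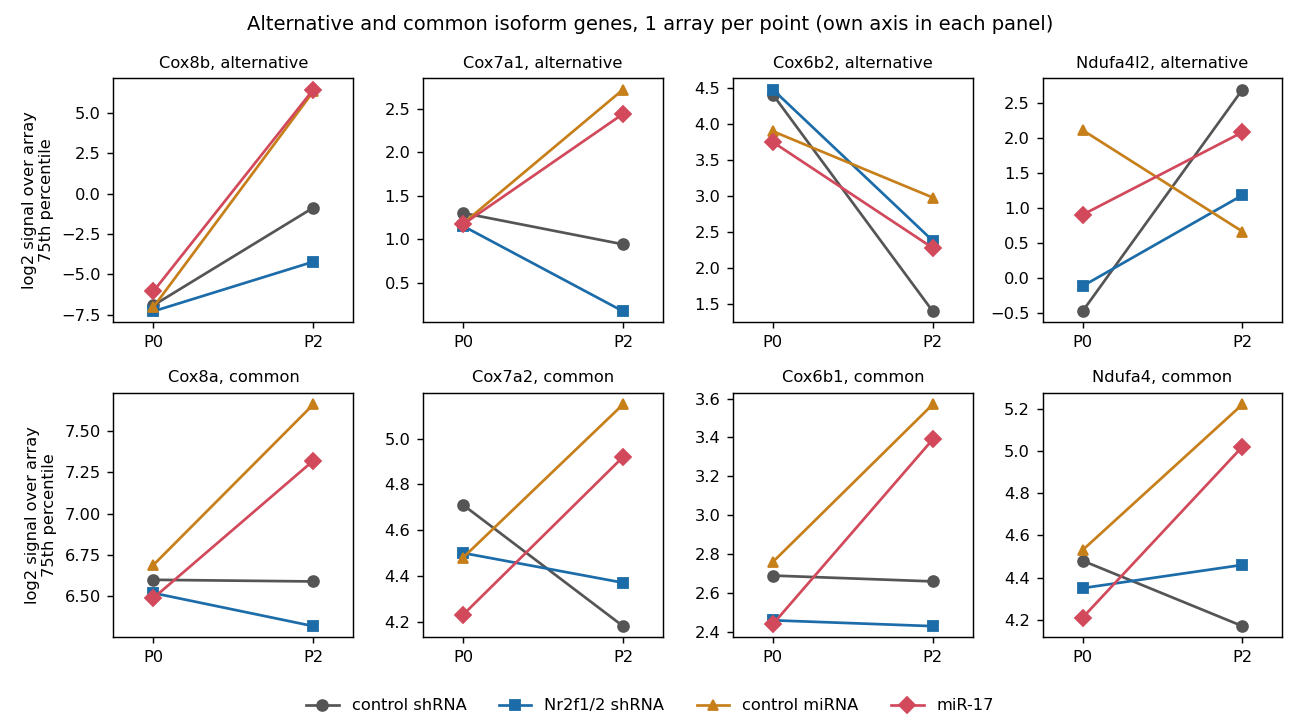
Log2 signal over the array's 75th percentile (vertical axis, own range in each panel) at P0 and P2 for 4 alternative isoform genes (top) and the common isoform of each (bottom); each point is 1 array and lines join the arrays of a condition. Cox8b was higher at P2 in all 4 conditions and Cox6b2 lower in all 4, while the common isoforms were higher at P2 in both miRNA conditions.

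The markers of tissues that use Cox8b were read beside it. Of 12 heart and skeletal muscle markers, 5 to 7 were well above background on an array, and their summed linear signal ran from 0.73 to 2.86 with the lowest values, 0.73 and 1.20, on the tertiary miRNA arrays. Of 10 brown fat genes, chosen after Cox8b was seen, 7 were tested. Their median passage difference was 0.29 and -0.13 in the shRNA pairs and 2.04 and 1.95 in the miRNA pairs, with 6 of 7 higher in each of the latter. Their summed linear signal was 3.42 to 5.70 on the primary arrays, 6.25 and 3.23 on the tertiary shRNA arrays, and 40.8 and 40.4 on the tertiary miRNA arrays. Cidea, a lipid droplet protein of brown fat, read -4.27, -5.37, 1.11 and -1.23 on the shRNA arrays and -4.49, -3.63, 5.10 and 5.02 on the miRNA arrays. The value of -5.37 lies under the lowest signal well above background on that array, -5.12, so it is no measured level. On the linear scale Cidea made up most of the summed signal on the tertiary miRNA arrays, so the rise of that sum is mainly the rise of Cidea. Ucp1, the uncoupling protein that defines brown fat, did not pass the filter on dim probes and was not tested. Ebf2, a transcription factor of brown fat precursors, fell over all arrays (log2 change -2.83 from P0 to P2, SE 0.35, limma adjusted p = 0.0361).

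Cox7a1, the heart and muscle isoform of subunit 7a, read 1.30, 1.15, 0.94 and 0.17 on the shRNA arrays and 1.18, 1.17, 2.72 and 2.44 on the miRNA arrays. The 4 primary arrays lay close together, with the tertiary shRNA arrays below and the tertiary miRNA arrays above them. It rose 2.64-fold in the miRNA arrays (adjusted p = 0.0101 in limma), and the shRNA pairs gave -0.36 and -0.98 log2 units. Cox6a2, the heart and muscle isoform of subunit 6a, gave -0.88 and -1.83 in the shRNA pairs and 0.54 and 0.96 in the miRNA pairs, and was not called in any of these fits (adjusted p = 0.0539 in the miRNA arrays alone).

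Cox6b2, known as the testis isoform of subunit 6b, was the 1 gene of the set that fell in the miRNA arrays. It read 4.41, 4.48, 1.40 and 2.38 on the shRNA arrays and 3.90, 3.75, 2.98 and 2.28 on the miRNA arrays, and the 4 tertiary values lay below the 4 primary ones. It fell by 1.20 log2 units in the miRNA arrays (SE 0.23, adjusted p = 0.0209 in limma), and the shRNA pairs gave -3.02 and -2.10. Cox6b1, its common counterpart, rose by 0.88 in the miRNA arrays (adjusted p = 0.0278). Only Cox6b2 and Cox7a2l were lower at P2 in all 4 pairs, against 32.1% of all genes, and 18 of 84 genes were higher in all 4, against 17.4%.

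Ndufa4l2, a gene known to be induced in low oxygen, did not follow the set. It read -0.48, -0.12, 2.69 and 1.18 on the shRNA arrays and 2.11, 0.90, 0.66 and 2.08 on the miRNA arrays, with no common direction. The control miRNA pair gave -1.45 and the miR-17 pair 1.18. Its common relative Ndufa4, now counted as a complex IV subunit, rose by 0.75 in the miRNA arrays (adjusted p = 0.0394 in limma). Cox4i2, the lung isoform of subunit 4, gave 0.24 (adjusted p = 0.381), and Cox4i1 rose by 0.76 (adjusted p = 0.0406). Cox7b2, a testis isoform, was well above background on the 2 tertiary shRNA arrays only, and no fold is given, since its bound is under 1.

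The promoters of the set were searched for motifs of known regulators, on both strands, whether or not a gene rose in the miRNA arrays. RefSeq promoters of build GRCm38.p6, from 250 bases before to 50 after a start, were found for 69 of the 85 genes. The motif of nuclear respiratory factor 1, a known activator of respiratory genes (GCGCANGCG), was in the promoters of 20 of the 69 genes, 29.0% against 7.03% of all genes in the table. An ETS motif, bound by GABPA among others (CCGGAAGT), was in 5, or 7.25% against 4.31%. The YY1 motif (AAGATGGCG) was in 8, or 11.6% against 1.64%, and the motif of the estrogen-related receptors (TCAAGGTCA) in 2, or 2.90% against 0.466%. Whether genes that rose held a motif more often than those that did not was not tested. Ndufc2 and Ndufa3, which rose most among genes with a measured size, held none of these motifs. Uqcr11 and Ndufs5 held that of nuclear respiratory factor 1, as did Atp5c1 and Sdhd, which did not pass in the miRNA arrays. In the sequences printed no motif overlaps another, promoters were not matched on base composition, and a match only describes the letters.

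The 250 bases before the start are printed for the gene of largest miRNA passage difference that holds a motif there (Ndufs5 for nuclear respiratory factor 1, Uqcr11 for ETS, Atp5g3 for the estrogen-related receptors), and for Cox8a and Cox8b, the isoform pair that differed most. Capitals mark the motif, which in Atp5g3 lies on the other strand. No gene held the YY1 motif wholly before the start of its first listed promoter. The windows are chr4:123718187-123718436 and chr10:80406822-80407071, chr2:73911327-73911576, chr19:7217617-7217866 and chr7:140900447-140900696, all on the minus strand of GRCm38.p6. None of the 4 motifs was found in the printed window of Cox8a or Cox8b. Cox8a is among the genes counted for the ETS motif, which there does not lie wholly before the start.
Ndufs5: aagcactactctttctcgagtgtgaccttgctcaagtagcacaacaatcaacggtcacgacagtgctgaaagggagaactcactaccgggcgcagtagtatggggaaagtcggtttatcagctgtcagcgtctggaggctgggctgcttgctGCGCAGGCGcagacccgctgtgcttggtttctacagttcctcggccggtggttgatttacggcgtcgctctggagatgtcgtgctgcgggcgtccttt
Uqcr11: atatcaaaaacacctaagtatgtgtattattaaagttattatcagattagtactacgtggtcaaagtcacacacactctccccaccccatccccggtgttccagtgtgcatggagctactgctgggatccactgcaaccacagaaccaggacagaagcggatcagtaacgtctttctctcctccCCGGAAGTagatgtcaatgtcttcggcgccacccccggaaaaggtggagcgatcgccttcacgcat
Atp5g3: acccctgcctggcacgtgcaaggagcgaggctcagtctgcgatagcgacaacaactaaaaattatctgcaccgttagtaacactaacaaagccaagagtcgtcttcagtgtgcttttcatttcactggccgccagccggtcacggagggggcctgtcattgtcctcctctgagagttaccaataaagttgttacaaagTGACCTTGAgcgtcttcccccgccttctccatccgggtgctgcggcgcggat
Cox8a: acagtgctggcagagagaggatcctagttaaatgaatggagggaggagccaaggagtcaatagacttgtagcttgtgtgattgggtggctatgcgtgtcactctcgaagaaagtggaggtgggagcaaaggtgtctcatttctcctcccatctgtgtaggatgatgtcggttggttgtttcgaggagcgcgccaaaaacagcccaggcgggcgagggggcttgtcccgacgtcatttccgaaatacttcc
Cox8b: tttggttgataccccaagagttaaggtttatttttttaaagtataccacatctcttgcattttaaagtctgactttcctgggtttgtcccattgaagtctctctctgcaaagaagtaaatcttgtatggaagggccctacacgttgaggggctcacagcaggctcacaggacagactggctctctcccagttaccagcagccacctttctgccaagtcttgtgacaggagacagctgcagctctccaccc

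Regulators of mitochondrial biogenesis, among them factors that bind these motifs, had median passage differences near 0 in the miRNA pairs. Of 16 such genes tested, 7 were higher at P2 with the control miRNA and 8 with miR-17, with medians of -0.15 and 0.02. In the shRNA pairs the medians were -0.23 and -0.20. Between the control vectors at P2, 14 of the 16 were higher in the miRNA array, against 58.2% of all genes. The median there was 0.46, against 0.17 over all genes, and 11 were higher after quantile normalization. Ppargc1a, the coactivator of nuclear respiratory factor 1 and the estrogen-related receptors, gave 0.14 and -1.05 in the shRNA pairs and 2.04 and 1.95 in the miRNA pairs (difference of the systems 2.45, adjusted p = 0.0533 in limma). Esrra, an estrogen-related receptor, gave -0.59, -0.54, 1.0 and 0.45 in the 4 pairs, shRNA first. Nrf1 itself gave 0.11, 0.58, -0.53 and 0.12, and Tfam, which packs and transcribes mitochondrial DNA, was lower in all 4 pairs (-0.90, -0.23, -0.97 and -0.59).

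**Figure D4:**
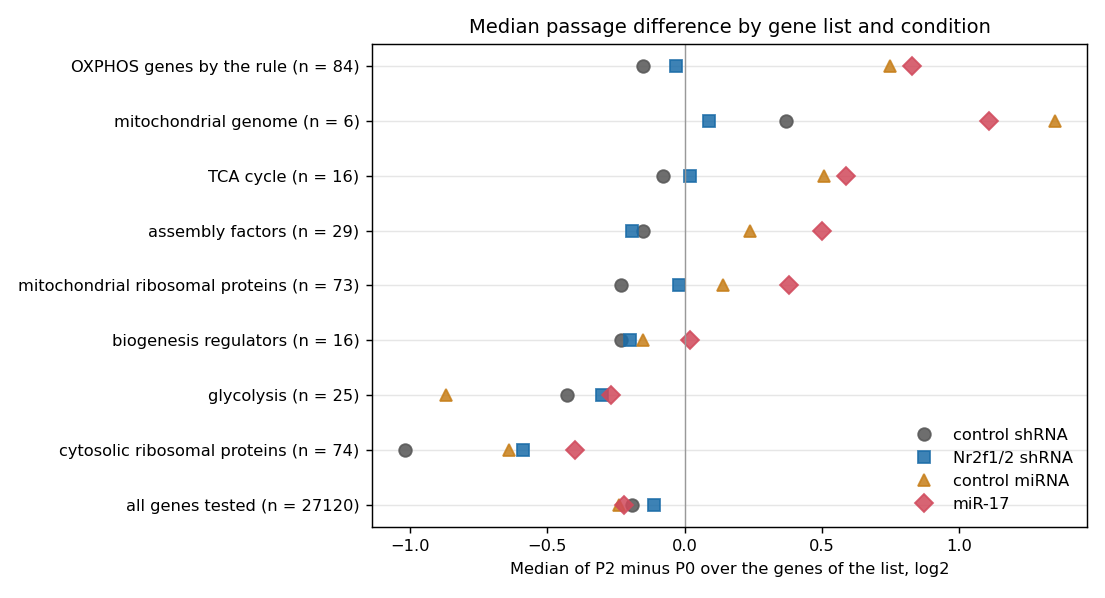
Median difference between P2 and P0 (log2, horizontal axis) over the genes of each list, for each condition (symbols), with the number of genes tested in parentheses. The oxidative phosphorylation, TCA cycle and mitochondrial genome lists lay at 0.51 or above in both miRNA conditions, and cytosolic ribosomal proteins lay below 0 in all 4.

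Other mitochondrial genes were read beside the set. The 6 genes of the mitochondrial genome on the array had medians of 1.35 and 1.11 in the miRNA pairs, and 0.37 and 0.09 in the shRNA pairs. ND5 gave 0.30 and -0.11 in the shRNA pairs and 1.93 and 1.51 in the miRNA pairs, and COX1 gave -0.35, -0.37, 0.46 and 0.07. The 16 genes of the TCA cycle, which feeds electrons to the chain, had medians of 0.51 and 0.59 in the miRNA pairs, with 15 and 16 genes higher, and -0.08 and 0.02 in the shRNA pairs. With passage over all arrays 0 of the 6 and 0 of the 16 were called (limma).

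The 29 tested assembly factors had medians of 0.24 and 0.50 in the miRNA pairs and -0.15 and -0.19 in the shRNA pairs. Subunits and carriers that the rule leaves out, such as Cyc1 and cytochrome c (Cycs), had medians of 0.37 and 0.34 over 6 genes in the miRNA pairs. The 73 mitochondrial ribosomal proteins gave 0.14 and 0.38, the first of which became -0.01 after quantile normalization. The 74 cytosolic ribosomal proteins, a list added after the data were seen, were at -0.64 and -0.40 in the miRNA pairs and -1.02 and -0.59 in the shRNA pairs, below 0 under each scaling. The 25 glycolysis genes were at -0.87 and -0.27 in the miRNA pairs, the latter turning to 0.01 when arrays were centred on the median of all genes. In the shRNA pairs these genes were at -0.43 and -0.30, which became -0.12 and 0 after quantile normalization.

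Markers of cell types and of proliferation differed between the arrays too. The summed linear signal of 12 astrocyte markers was 24.2 to 42.4 on the primary arrays, 450 on the tertiary control shRNA array, 88.1 on the tertiary Nr2f1/2 shRNA array, and 1350 and 1140 on the tertiary miRNA arrays. That of 12 cell cycle genes was 108 to 160 on the primary arrays, 28.0 and 111 on those shRNA arrays, and 26.9 and 23.5 on the miRNA arrays. Of the oligodendrocyte markers it was 8.85 to 13.4, then 147 and 15.2, then 438 and 486. The sums are weighted to the brightest genes. By the median passage difference, the oligodendrocyte markers gave 4.27 and 0.32 in the shRNA pairs and 3.64 and 3.81 in the miRNA pairs. By that measure the control shRNA pair was not below the miRNA pairs. The 10 neuron markers tested had median passage differences of -0.36 and -0.28 in the shRNA pairs and -1.93 and -1.87 in the miRNA pairs. The 12 pluripotency markers had medians of -1.71, -2.16, -1.72 and -1.72, and the 8 endothelial and blood markers tested 0.00, -0.20, -0.62 and -0.84. For 15 genes linked to HIF, a transcription factor active in low oxygen, the medians were -0.20, -0.10, -0.97 and -0.03. Gene by gene, the median passage difference of the cell cycle genes was -2.47 and -0.28 in the shRNA pairs and -4.34 and -3.53 in the miRNA pairs. The median level of the oxidative phosphorylation genes was 4.54 to 4.84 on the primary arrays, 4.83 and 4.62 on the tertiary shRNA arrays, and 5.87 and 5.62 on the tertiary miRNA arrays. The part of these cell types in the result was not tested.

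Treated arrays were slightly below their controls for most genes of the set. In primary neurospheres 80 of 84 genes were lower with the Nr2f1/2 shRNA than with its control, against 49.9% of all genes, with a median of -0.20 against 0.00. With miR-17 at P0, 77 of 84 were lower, against 49.9%, with a median of -0.28 against 0.00. At P2 the counts were 51 of 84 for the knockdown, against 45.7%, and 73 of 84 for miR-17, against 51.5%, with medians of -0.10 and -0.21. All 4 medians were below 0 under each scaling tried, with ranges of -0.11 to -0.23 and -0.04 to -0.25 for the knockdown at P0 and P2, and -0.09 to -0.41 and -0.18 to -0.23 for miR-17. After quantile normalization 61 of 84 were lower with miR-17 at P0.

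**Figure D5:**
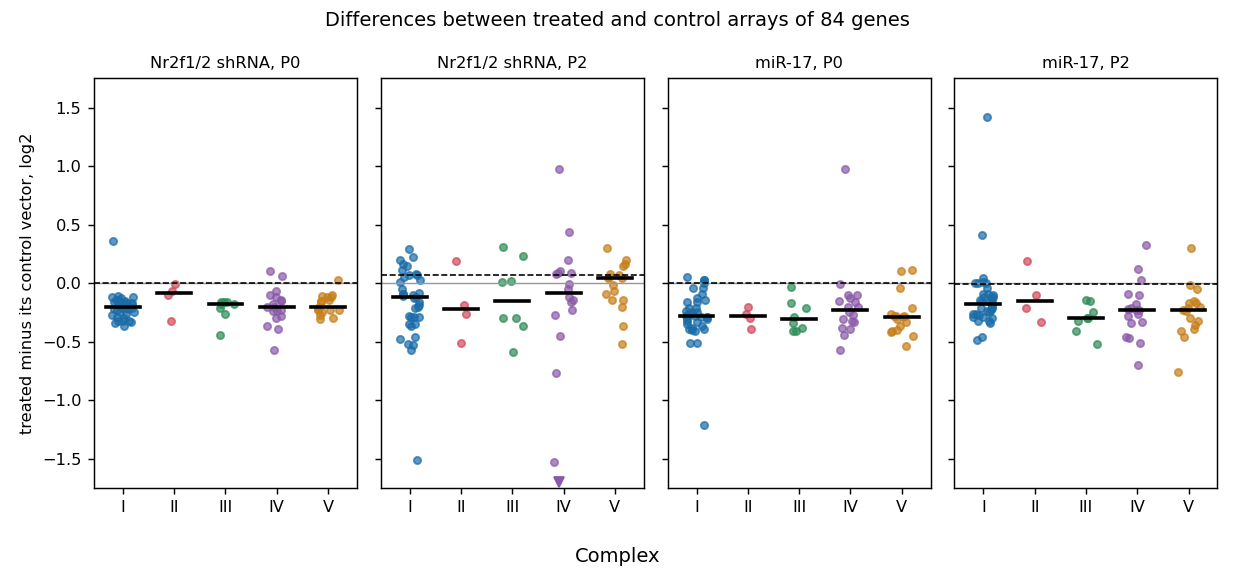
Difference between the treated array and its control vector (log2, vertical axis) for the 84 genes tested, by complex, in each pair of arrays; each point is a gene, thick bars are complex medians, the dashed line is the median of all genes, and the triangle is Cox8b beyond the axis. Most points lay a little below 0 at P0, and few were past 1.5-fold.

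These differences were small. For the knockdown at P0, 0 of 84 genes were past 1.5-fold higher or lower, against 11.1% and 3.55% of all genes. At P2 1 was higher and 5 lower, against 20.7% and 17.6%. For miR-17 1 was higher and 1 lower at P0, against 16.1% and 6.93%, and 1 was higher and 2 lower at P2, against 11.1% and 5.98%. In limma over both passages 0 of 84 were called with knockdown and 0 with miR-17, as were 0% of all genes in either direction, and 0 of 84 had an unadjusted p under 0.05 in either comparison, against 1.91% and 0.992% of all genes. The interactions with passage gave 0 calls too, with 0 of 84 at an unadjusted p under 0.05, against 3.95% and 1.08% of all genes. The treated array also had more spots well above background than its control in each pair (63.2% against 57.9%, 67.3% against 64.8%, 67.9% against 65.0%, and 63.4% against 58.3%), and lay in another slide row. The part of these in the shift was not tested.

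The genes furthest from their control in a pair were mostly isoforms. With the knockdown at P2 the lowest were Cox8b at -3.35, Cox6a2 at -1.53, Ndufa4l2 at -1.51 and Cox7a1 at -0.77, and the highest was Cox6b2 at 0.98. With miR-17 at P0 Ndufa4l2 was lowest, at -1.21, and at P2 it was highest, at 1.42. Cox8b was 0.98 higher with miR-17 at P0, on arrays where it was not well above background. Atp5o (the subunit that links F1 to the stalk) was lowest with miR-17 at P2, at -0.76. Between the control vectors at P2, Cox8b was 7.20 higher in the miRNA array and Ndufa4l2 was at -2.03.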

How the data were processed

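RNA of 8 neurosphere cultures was labelled with Cy3 and read on Agilent single-colour mouse arrays, 1 array per condition and passage. Spot intensity, detrended and background-subtracted, was written by Agilent Feature Extraction (version 10.7.3.1), as deposited. The authors' table of signal values equals this intensity divided by 1 constant per array. Coordinates of probes are mm9, per the file headers.

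Of 55681 probes, 28 left with no unflagged spot on an array were dropped. Intensities were put on the log2 scale and each array's 75th percentile was subtracted. A gene was tested if its probe was well above background on at least 2 arrays. limma 3.58.1 in R 4.3.3 fitted condition and passage over all 8 arrays (3 residual degrees of freedom, 2.19 prior), and each vector system alone (1 residual degree of freedom). p-values were two-sided and adjusted by Benjamini-Hochberg over 27120 genes, and called under 0.05. Pairs of single arrays have no test and were counted past 1.5-fold. The code was tested on simulated data. The members and gene lists were chosen with earlier results of these data known.

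Promoter sequences are RefSeq's, of GRCm38.p6, another build than the probes'. Genes named are those called in a fit, the highest and lowest per complex or pair of arrays, complex II, the isoforms and the c-ring. The genes of other lists (such as Nrf1, Tfam, COX1 and Cidea) and the remaining subunits were chosen for their roles after their values were seen. Where a gene had several probes (24 genes), 19 had all probes in 1 direction in the miRNA arrays, and Atp5c1, Cox7c, Ndufa3, Ndufb11 and Ndufb5 did not. Alternatives were other background corrections, scalings, filters, values per gene and priors, and each array left out. The single values of 1 member and of 1 other gene are not reported here.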

Additional observations from a re-analysis of the deposited data

Results flagged for a closer look

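The difference between the vector systems in their passage differences, miRNA minus shRNA, passed the threshold in limma for 5 genes, by a term chosen after the pairs of arrays were seen. It was 2.09 log2 units for Ndufc2, 2.07 for Cox7a1 and 1.51 for Uqcr11. The fitted values of Cox8b, 8.37, and Cox7b2, -2.20, are no measured sizes. Cox8b was not well above background on the 4 primary arrays and Cox7b2 on 6 of 8 arrays, and both passed the filter on dim probes only through the arrays where they were high. In all, 35 of the 84 genes, Cox7a1 among them, were lower at P2 in both shRNA pairs and higher in both miRNA pairs, against 8.19% of all genes, which as a count was not tested. That count was 21 with normexp background correction and 14 after quantile normalization. The vector system, the slide column and the separate cultures cannot be told apart here.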

How the results depend on the processing

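The medians of 0.75 and 0.83 in the miRNA pairs stayed above 0 under every setting computed for them (0.72 to 0.92 and 0.79 to 1.11). The count of genes highest on both tertiary miRNA arrays was 61 to 74, and knockdown, miR-17, the control vectors and the passage interactions had 0 genes called under every setting run. Genes called with passage over all arrays numbered 5 with normexp, 2 with the trended robust prior and with no condition block, 1 after quantile normalization, on the filter of all 8 arrays and with median centring, 52 in the miRNA arrays alone, and 0 to 1 with an array left out. The median passage difference was 0.21 to 0.53 with an array left out, -0.09 in the shRNA arrays alone and 0.80 in the miRNA arrays alone. Genes called for vector system by passage numbered 14 with normexp, 3 after quantile normalization, 0 with no filter, 12 on the filter of all arrays, 9 with median centring, 25 with the trended robust prior, and 0 to 5 with an array left out. Those called with passage in the miRNA arrays numbered 0 to 52 with an array left out. Signs turned for the fitted passage difference of Cox7b2, which rests on values at background (-0.10 with normexp, -0.53 in the miRNA arrays alone), for Ndufa3 on its dimmest passing probe (-0.56, and -0.18 for vector system by passage), for Cox7a1 (-0.03 to 0.81 with an array left out, below 0 without the control miRNA array of either passage, and -0.67 in the shRNA arrays alone) and for Ndufc2 (-0.02 in the shRNA arrays alone). The cause was not tested, beyond the fewer arrays or other probe that each setting has. With an array left out the passage interactions leave no residual degrees of freedom and were not run. The passage fit has condition as its block, which pairs the P0 and P2 arrays of a condition. A block on replicate numbers could not be fitted, since each group is 1 array. With 1 array per group, the number of arrays limits the precision, and no size can be given for Cox7b2 and only bounds for Cox8b.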
